A study of Mus musculus with 3 samples.

Results

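HA-NUR77 peaks were examined over the 2 CXC chemokine gene clusters of mouse chromosome 5. The members were the peaks whose centre lay between 91100000 and 91450000 (mm9), the window of Cxcl1, Cxcl2 and their neighbouring CXC genes, or between 92700000 and 92900000, the window of Cxcl9, Cxcl10 and Cxcl11. The windows hold 51 of the 52946 peaks in the 3 lists together. Replicate 1 contributed 10 of its 6777 peaks, replicate 2 contributed 33 of 37307 and replicate 3 contributed 8 of 8862. Of these, 40 lay in the Cxcl1-Cxcl2 window and 11 in the Cxcl9-Cxcl11 window. The windows were set by position and not by peak score.

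The data are chromatin immunoprecipitation sequencing (ChIP-seq) of 1 group of 3 replicates. RAW264.7, an established mouse macrophage line, carried the transgene pINDUCER20b-HA-NUR77, which expresses HA-tagged NUR77 when doxycycline is given. Every replicate was treated with 1 µg/mL doxycycline for 18 hours, starting 24 hours after 6 dishes were seeded, and chromatin was precipitated with an antibody to the HA tag. The protein is overexpressed and the line is described as 1 stable line, and uninduced, untagged or mock-precipitated cells were not analysed here. Replicates are therefore compared with each other, and the windows with the rest of the genome. Whether replicates were grown on separate days is not stated, so their spread may be technical.

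CXC chemokines are small secreted proteins that draw leukocytes along a concentration gradient by acting on G protein-coupled receptors. Cxcl1 (KC) and Cxcl2 (MIP-2) act on CXCR2 and recruit neutrophils, and macrophages make both within hours of a Toll-like receptor signal through NF-kB. Cxcl9 (Mig), Cxcl10 (IP-10) and Cxcl11 (I-TAC) act on CXCR3 and recruit activated T cells and natural killer cells, and interferons induce them. NUR77 (Nr4a1) is an orphan nuclear receptor that binds, as a monomer, a site called the NBRE and has been linked to restraint of inflammatory gene expression in macrophages. In the RefSeq gene table (GRCm38), the gene order of the first cluster was Cxcl5, Ppbp, Pf4, Cxcl3, Cxcl15, Cxcl1 and Cxcl2, followed by Mthfd2l. Ppbp and Pf4 encode platelet chemokines, and Cxcl5 and Cxcl3 encode further neutrophil attractants. The order of the second cluster was Cxcl9, Art3, Cxcl10 and Cxcl11, with Sdad1 and Naaa on the lower side and Nup54 on the upper side. That table lists Cxcl11 as a transcribed pseudogene. Its build differs from that of the peaks, so it gave names and order only, and no peak was assigned to a gene.

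To show the control sequence of the named chemokine genes, the 250 bases before the annotated start are printed for Cxcl1, Cxcl2, Cxcl9 and Cxcl10, the 4 of the 5 genes that matched the promoter table. They are from RefSeq, GRCm38.p6, read 5′ to 3′ on the strand of the gene. They lie at chr5:90890995-90891244 and chr5:90903649-90903898 on the plus strand, and at chr5:92328080-92328329 and chr5:92348890-92349139 on the minus strand. These positions are not comparable with the mm9 positions of the peaks. Capitals mark matches to any of 5 motifs searched on both strands, the NBRE (AAAGGTCA), the nuclear receptor core hexamer (AGGTCA, contained in the NBRE), a kappaB site (GGG, 2 free bases, TT, 1 free base, CC), an interferon-stimulated response element or ISRE (a pair of GAAA separated by 2 free bases) and an AP-1 site (TGANTCA).
Cxcl1: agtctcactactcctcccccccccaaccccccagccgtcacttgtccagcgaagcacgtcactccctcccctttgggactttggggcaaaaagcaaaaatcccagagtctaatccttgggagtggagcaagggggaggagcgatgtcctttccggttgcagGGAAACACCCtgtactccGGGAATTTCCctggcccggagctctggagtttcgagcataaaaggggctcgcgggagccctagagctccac
Cxcl2: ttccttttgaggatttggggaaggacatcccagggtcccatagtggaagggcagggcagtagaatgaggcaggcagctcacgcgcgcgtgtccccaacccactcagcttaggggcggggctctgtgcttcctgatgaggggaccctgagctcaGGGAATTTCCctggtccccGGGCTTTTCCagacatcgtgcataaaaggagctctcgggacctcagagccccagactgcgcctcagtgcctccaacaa
Cxcl9: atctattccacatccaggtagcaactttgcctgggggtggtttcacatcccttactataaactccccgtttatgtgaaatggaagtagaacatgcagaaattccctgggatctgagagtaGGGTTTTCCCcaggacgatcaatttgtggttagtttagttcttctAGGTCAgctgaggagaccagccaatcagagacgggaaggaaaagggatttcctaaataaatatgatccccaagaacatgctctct
Cxcl10: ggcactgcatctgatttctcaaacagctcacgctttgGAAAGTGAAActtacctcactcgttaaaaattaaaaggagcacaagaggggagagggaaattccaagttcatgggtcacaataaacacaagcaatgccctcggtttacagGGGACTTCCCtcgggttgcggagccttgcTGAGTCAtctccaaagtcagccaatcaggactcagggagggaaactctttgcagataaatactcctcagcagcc

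All 4 sequences held a kappaB match, the motif of NF-kB, which was present in 4.11% of the 32851 promoters of the table over the same 250 bases. Cxcl1 and Cxcl2 shared the match GGGAATTTCC, which began 71 bases before the start in Cxcl1 and 97 bases before it in Cxcl2. The neighbour Cxcl3 held the same letters 73 bases before its start. Each of Cxcl1 and Cxcl2 held 1 further kappaB match, GGAAACACCC on the opposite strand 89 bases before the start of Cxcl1 and GGGCTTTTCC 78 bases before the start of Cxcl2. Cxcl9 held GGGTTTTCCC 130 bases before its start, and Cxcl10 held GGGACTTCCC 103 bases before its start. None of the 4 held an NBRE in this stretch, which 1.34% of all promoters did. The core hexamer occurred in Cxcl9 alone among the 4, 85 bases before the start, and in 14.0% of all promoters. Among the 4, Cxcl10 alone held an ISRE (GAAAGTGAAA, 213 bases before the start), a motif of 2.98% of all promoters. It alone also held an AP-1 match before the start (TGAGTCA, 74 bases), a motif of 6.75% of all promoters. The kappaB pattern searched is 1 form of the site, and stretches that differ from it are not marked. A match describes the letters only, and none of these stretches is known to lie under a peak.

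**Figure D1:**
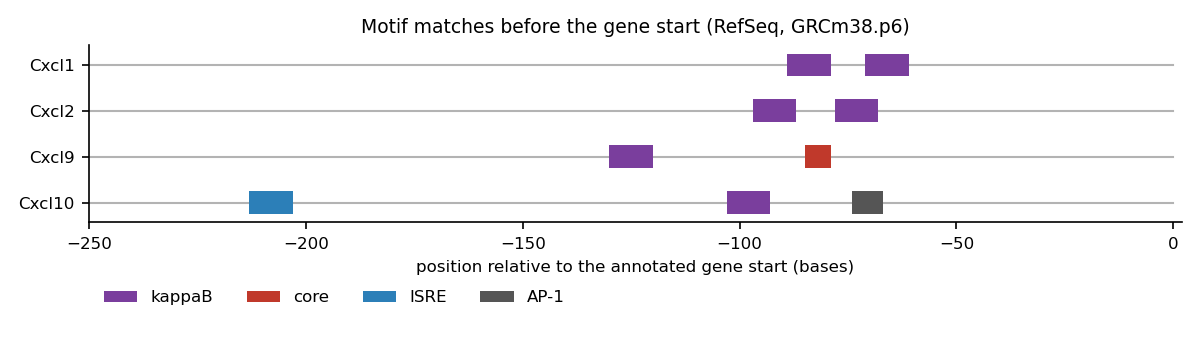
Motif matches in the 250 bases before the annotated start of Cxcl1, Cxcl2, Cxcl9 and Cxcl10 (rows), with the position relative to the start in bases on the x axis. Boxes are matches on either strand. Each row has a kappaB box between 130 and 62 bases before the start, and the ISRE box is in the Cxcl10 row.

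The Cxcl1-Cxcl2 window was rich in HA-NUR77 peaks in every replicate, and many of them were among the best-scored of the genome. Replicate 1 had 8 peaks in it, replicate 2 had 24 and replicate 3 had 8, on average 13.3 ± 9.24 (SD, n = 3), or 8.0 without replicate 2. At the density of each whole list, 350 kb would hold 0.893, 4.92 and 1.17 peaks in replicates 1, 2 and 3. The window was thus 8.96, 4.88 and 6.85 times as dense as all nuclear chromosomes, a mean of 6.89 ± 2.04 (SD, n = 3). It was denser in 3 of 3 replicates. An exact two-sided sign-flip permutation test on the log2 ratios gave p = 0.25, the smallest p that 3 replicates allow, so this design could not pass 0.05. Of 7575 windows of 350 kb tiled over the nuclear chromosomes, 1.11% held at least as many peaks of replicate 1, 1.08% of replicate 2 and 1.81% of replicate 3, and the median window held 0, 2 and 0.

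The Cxcl9-Cxcl11 window was less populated. Replicate 1 had 2 peaks in it, replicate 2 had 9 and replicate 3 had 0, on average 3.67 ± 4.73 (SD, n = 3), or 1.0 without replicate 2. The 9 replicate 2 peaks were 81.8% of the window's 11 (exact 95% interval 48.2 to 97.7), and the replicate 2 list is 70.5% of all peaks, inside that interval. In the Cxcl1-Cxcl2 window they were 24 of 40 (60.0%, 43.3 to 75.1), an interval that also includes 70.5%. Both intervals treat peaks as independent and cover counting error only. Relative to all nuclear chromosomes the density of the Cxcl9-Cxcl11 window was 3.92 in replicate 1, 3.20 in replicate 2 and 0 in replicate 3. It averaged 2.37 ± 2.09 (SD, n = 3), so the spread between replicates was about as large as the mean. With the higher-scored 50% of each list alone the mean was 0.949, below the genome density. At whole-list density, 200 kb would hold 0.51, 2.81 and 0.668 peaks in replicates 1, 2 and 3. A count of 0 peaks in replicate 3 allows up to 3, a ratio of up to 4.49, so it does not show fewer peaks there than elsewhere. Among 13262 windows of 200 kb, 12.1% held at least 2 peaks of replicate 1 and 10.2% held at least 9 of replicate 2, while 69.8% held none of replicate 3.

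**Figure D2:**
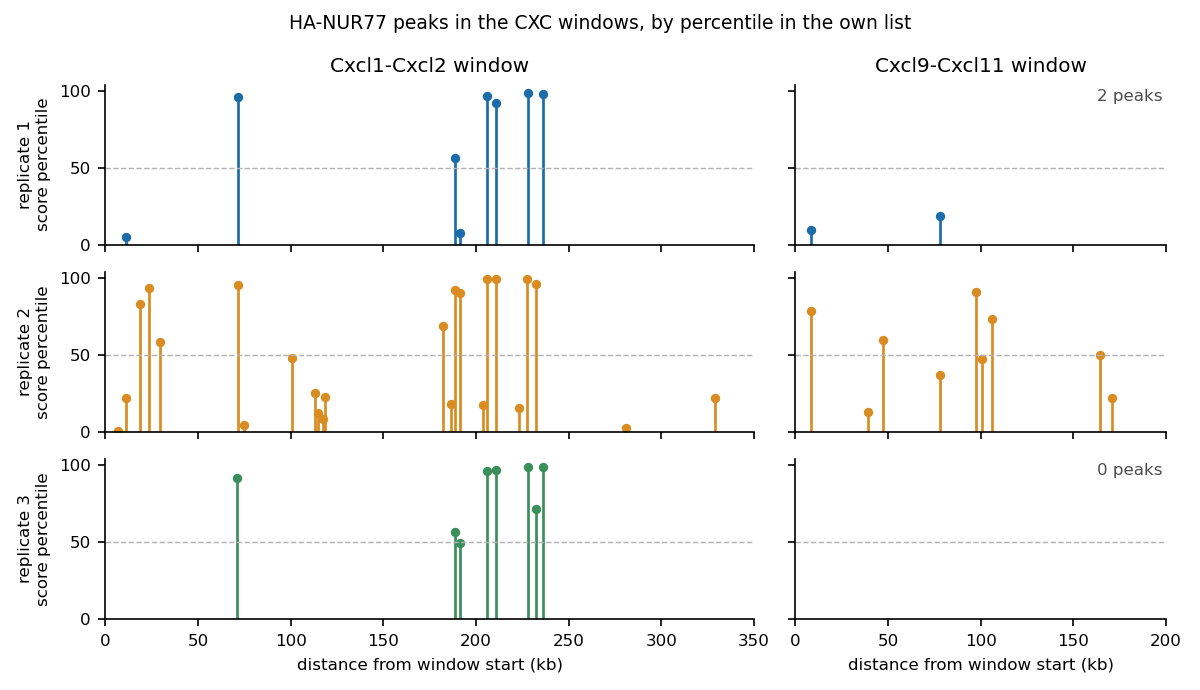
Every HA-NUR77 peak of the Cxcl1-Cxcl2 window (left) and the Cxcl9-Cxcl11 window (right) in replicates 1 to 3 (rows), with the distance of the peak centre from the window start in kb on the x axis and its score percentile within the list of its own replicate on the y axis. The dashed line is the 50th percentile. In replicates 1 and 3 high stems stand at 71.3 kb and between 206.0 and 236.2 kb of the left window, and the right window holds 2 low stems in replicate 1 and none in replicate 3.

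Peaks that overlapped by at least 1 bp or touched were joined into regions to see which positions replicates had in common. The Cxcl1-Cxcl2 window held 25 regions. Of these, 9 (36.0%, exact 95% Clopper-Pearson interval 18.0 to 57.5) had peaks of at least 2 replicates, against 25.4% of all 38463 regions of the genome. All 3 replicates were present in 6 (24.0%, 9.36 to 45.1), against 12.3% of all regions. Replicate 2 alone gave 16 regions (64.0%, 42.5 to 82.0), against 72.1% of all regions. Replicates 1 and 3 gave no region of their own, and for each the exact interval reaches 13.7%. Over the genome such regions are also rare, as the shares of 25.4% and 72.1% leave few others, so their lack does not set this window apart. Both genome shares of at least 2 and of 3 replicates lie inside the intervals, which cover counting error only. By number of regions, 1.66% of the tiled 350 kb windows held at least 9 regions of 2 or more replicates and 1.00% held at least 6 of all 3.

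Of the Cxcl1-Cxcl2 peaks of replicate 1, 6 of 8 overlapped both other replicates, against 69.1% of the whole list, which is near the background. In replicate 2 it was 6 of 24, against 12.7% of the whole list. In replicate 3 it was 6 of 8, against 52.8%. The Cxcl9-Cxcl11 window held 9 regions. Of these, 2 (22.2%, 2.81 to 60.0) had peaks of 2 replicates, close to the background of 25.4%, and 0 had peaks of all 3, for which the exact interval reaches 33.6% and includes the background of 12.3%. The other 7 (77.8%, 40.0 to 97.2) were of replicate 2 alone, near the background of 72.1%. Without replicate 1 or without replicate 2, 0 shared regions were left in this window.

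The highest-scored region common to all 3 replicates lay at 91327423 to 91328122, 227.8 kb into the Cxcl1-Cxcl2 window. Its peak had a score of 282.329 (rank 118 of 6777) in replicate 1, 958.844 in replicate 2 and 431.025 (rank 105 of 8862) in replicate 3. In replicate 2 that score is shared by 549 peaks, which all take rank 335 of 37307. The percentiles, counted from the bottom of the own list with ties at their mean rank, were 98.3, 99.1 and 98.8. The 3 peak centres lay within 31 bp of each other. The scores are the authors' own values with no stated scale, so only ranks within 1 list are compared.

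A second pair of strong regions common to all 3 replicates lay 4.82 kb apart, on the lower side of it. The region at 91305573 to 91306372 had scores of 210.958 (rank 229) in replicate 1, 958.844 (the tied rank 335) in replicate 2 and 262.559 (rank 319) in replicate 3. The region at 91310423 to 91311172 had scores of 136.306 (rank 558), 958.844 (the tied rank 335) and 280.678 (rank 273). Both were above the 90th percentile in 3 of 3 replicates. Their order differed between lists, since the first ranked better in replicate 1 and the second in replicate 3.

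Far from these, 71.3 kb into the window, the region at 91170973 to 91171622 had scores of 202.029 (rank 261) in replicate 1, 548.119 (rank 1814) in replicate 2 and 172.226 (rank 720) in replicate 3. It too was above the 90th percentile in all 3 lists, at 96.2, 95.1 and 91.9. The remaining regions of all 3 replicates were uneven in percentile, which depends on list length as well as on rank. For replicates 1, 2 and 3 the lists hold 6777, 37307 and 8862 peaks. At 91288173 to 91288822 the percentiles, in that order, were 56.3, 92.0 and 56.8, while the ranks were closer, at 2960, 2996 and 3829. At 91290823 to 91291472, 2.65 kb further on, the percentiles were 7.89, 90.01 and 49.6, a mean of 49.2 ± 41.1 (SD, n = 3). Its ranks were 6242.5, 3727 and 4467. Whether list length alone accounts for these spreads was not tested. This last region was among the weakest of the replicate 1 list and in the top 10% of the replicate 2 list.

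The best-ranked Cxcl1-Cxcl2 peak of replicate 3 had no partner in replicate 2. It lay at 91335726 to 91336575, was 850 bp wide and had a score of 471.189 (rank 86). The replicate 1 peak within it, at 91336004 to 91336353, had a score of 240.052 (rank 168) and was second only to the region at 91327423 in that list's share of the window. The 2 centres lay 28 bp apart. The peak lists skip some of the numbers in the peak names, which follow position along each chromosome, so the deposited lists hold only part of the numbered peaks. In replicate 2 the number 34025 is skipped, and by position it falls between the listed peaks ending at 91332872 and starting at 91380523, a gap of 47.7 kb that contains this region. Over the genome, 169 regions had peaks of replicates 1 and 3 without replicate 2. For 44 of these (26.0%) a skipped replicate 2 number fell into the surrounding gap, against 18.5% of all neighbouring pairs of replicate 2 peaks and 29.1% of the pairs at least as far apart as here. Whether the skipped number belonged to this region was not tested, and the lack of a listed peak does not show a lack of binding in replicate 2.

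A different replicate was lacking 3.58 kb below that region, at 91332273 to 91332872. This region had a score of 627.489 (rank 1435) in replicate 2 and 80.788 (rank 2531) in replicate 3, and no listed peak in replicate 1. The 2 centres were 3 bp apart. In replicate 1, the numbers 8369 and 8370 are skipped between the listed peaks ending at 91328053 and starting at 91336004, a gap of 8.0 kb around this region. Skipped numbers are common, at 39.1% of the numbers of replicate 1, and at least 2 were skipped in 16.7% of the gaps of at least this length in that list. The weakest region of 2 replicates in the window lay at 91110873 to 91111322, with a score of 24.197 (rank 6422) in replicate 1 and 39.882 (rank 29013.5) in replicate 2. These were at percentiles 5.25 and 22.2 of their lists.

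**Figure D3:**
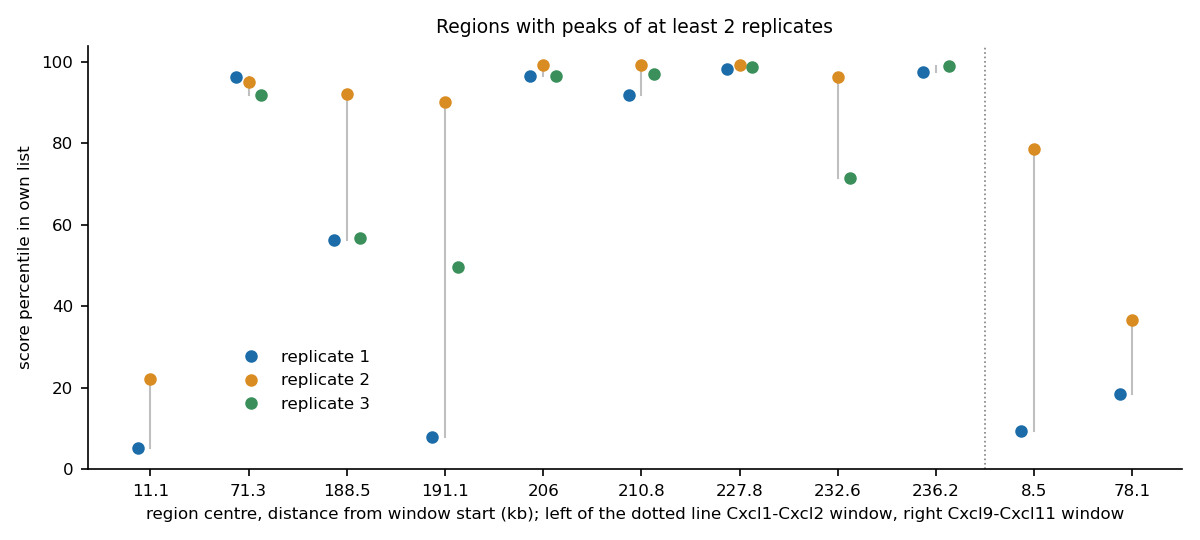
Score percentile (y axis) of each replicate's peak in the 11 regions with peaks of at least 2 replicates, placed in order of their position within the window (x axis, centre in kb from the window start). Points are single replicates and grey lines span their range. In the Cxcl1-Cxcl2 window 5 regions have all their points above 91, and in the Cxcl9-Cxcl11 window no point is above 78.5.

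The shared regions gathered on the upper part of the Cxcl1-Cxcl2 window. The stretch at 91288173 to 91336575, picked after its values were seen, held 7 of the 9 regions of at least 2 replicates and 5 of the 6 regions of all 3 within 48.4 kb. Here the 3 lists were nearly equal in number, as replicate 1 had 6 peaks, replicate 2 had 8 and replicate 3 had 7, although the whole replicate 2 list is the longest. Neighbouring region centres were 2.65 to 17.0 kb apart, against a median of 54.0 kb between neighbouring regions of at least 2 replicates over the genome. The other distances between such regions of the window were 60.2 and 117.2 kb. Of the 9755 regions of at least 2 replicates over the genome, 61 (0.625%) began a stretch of this length with 7 or more of them. The highest number was 11. The stretch was cut to fit its 7 regions, each already chosen for holding at least 2 replicates. The selection thus favours near-equal counts, short distances and a low share, so these values describe the stretch and test nothing. The gene order of the RefSeq table puts Cxcl1 and Cxcl2 at the upper end of the chemokine genes, but on another build, so the distance between the stretch and either gene was not determined.

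Peak scores in the Cxcl1-Cxcl2 window were high in replicates 1 and 3 and mixed in replicate 2. In replicate 1 the median percentile of its 8 peaks was 94.0, with a range of 5.25 to 98.3. In replicate 3 the median of its 8 peaks was 94.1, with a range of 49.6 to 99.0. In replicate 2 the median of its 24 peaks was 36.5, with a range of 0.733 to 99.1. Of the window's peaks, 5 of 8 in replicate 1, 8 of 24 in replicate 2 and 5 of 8 in replicate 3 were in the highest-scored 10% of their list. This was more than the 10% of each list that sets the threshold, in 3 of 3 replicates, and no test was applied since peaks within 1 list are not replicates.

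Within replicate 2, shared and unshared peaks of the window differed in score. Its 8 Cxcl1-Cxcl2 peaks that overlapped another replicate had a median percentile of 95.7 and a median width of 650 bp, and 7 of them were in the top 10%. Its 16 peaks with no partner had a median percentile of 19.8 and a median width of 376.5 bp, and 10 of them were below the 25th percentile. Shared peaks also scored higher over the whole replicate 2 list, where the median percentile was 83.4 for 9590 shared peaks and 38.8 for 27717 peaks without a partner. There the median widths were 600 bp for shared peaks and 450 bp for the others. The share in the top 10% was 87.5% of the window's shared peaks, against 33.6% of all shared peaks, and the share below the 25th percentile was 62.5% of the window's peaks without a partner, against 32.6% of all such peaks. The best of the window's peaks without a partner lay close together near its lower end, at 91123373 to 91124022 (score 455.8, rank 2474) and at 91118573 to 91119222 (score 230.163, rank 6449). The third by rank lay at 91282123 to 91282672 (score 134.009, rank 11555). The first ranked above the replicate 2 peaks of both weaker regions of all 3 replicates, at 91288173 (rank 2996) and 91290823 (rank 3727).

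In the Cxcl9-Cxcl11 window no region combined high scores in 2 lists. The region at 92708223 to 92708722 had a score of 25.648 (rank 6139, percentile 9.42) in replicate 1 and 188.963 (rank 8032, percentile 78.5) in replicate 2, with centres 6 bp apart. The region at 92777873 to 92778353 had a score of 28.687 (rank 5527, percentile 18.5) in replicate 1 and 56.089 (rank 23611, percentile 36.7) in replicate 2, with centres 81 bp apart. Both replicate 1 peaks were thus among the weaker of their list. The median percentile of the 9 replicate 2 peaks was 49.6, near the middle of the list.

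The best-scored Cxcl9-Cxcl11 peak was of replicate 2 alone, at 92797273 to 92797872, with a score of 359.474 (rank 3531, percentile 90.5). It was the only 1 of the 9 in the top 10% of the list. The next of replicate 2 alone were at 92805673 to 92806172 (score 155.688, rank 9877) and at 92747323 to 92747822 (score 102.04, rank 14974.5). The remaining 4 had percentiles between 12.9 and 49.6. In replicate 3 the nearest listed peaks ended at 92449525 and began at 92937876, a gap of 488.4 kb in which 5 peak numbers are skipped. In that list 38.8% of all numbers are skipped, and 3.93% of the 1170 gaps of at least this length had 5 or more.

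The density of peaks was not limited to the Cxcl1-Cxcl2 window. Its 2 flanks of equal length had 6, 17 and 9 peaks of replicates 1, 2 and 3 on the lower side and 3, 21 and 6 on the upper side, against 8, 24 and 8 in the window. The density relative to the genome was 6.89 ± 2.04 in the window, against 5.96 ± 2.22 in the lower and 4.25 ± 0.889 in the upper flank (SD, n = 3 each). The window exceeded the lower flank in replicates 1 and 2 and not in replicate 3. The difference of their means was smaller than either SD, and the spread of the differences within replicates was not computed. The window exceeded the upper flank in 3 of 3 replicates. In the window 5, 8 and 5 peaks of replicates 1, 2 and 3 were in the top 10% of their list, against 1, 4 and 2 in the lower and 0, 2 and 0 in the upper flank. The median percentile did not differ the same way in every list. In replicate 1 it was 94.0 in the window, against 75.1 in the lower and 49.4 in the upper flank, and in replicate 3 it was 94.1, against 71.9 and 34.6. In replicate 2 the window had the lowest median, at 36.5 against 49.6 in the lower and 51.3 in the upper flank, and 11 of its 24 peaks were in the higher-scored 50%, against 8 of 17 and 12 of 21.

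Around the Cxcl9-Cxcl11 window the flanks of 200 kb held 0, 10 and 0 peaks of replicates 1, 2 and 3 on the lower side and 1, 3 and 1 on the upper side, against 2, 9 and 0 in the window. Its relative density of 2.37 ± 2.09 overlapped both the lower flank at 1.19 ± 2.05 and the upper flank at 1.51 ± 0.446 (SD, n = 3 each). The 1250 kb between the windows had 6, 40 and 9 peaks, a relative density of 2.10 ± 0.203. Chromosome 5 as a whole was at 1.03, 1.08 and 1.09 times the genome density in replicates 1, 2 and 3, and the sequence between the windows was denser than its chromosome in 3 of 3 replicates. It includes the upper flank of the first window and the lower flank of the second. The 700 kb left without these flanks had 3, 9 and 3 peaks, at 1.68, 0.915 and 1.28 times the genome density, so it was denser than chromosome 5 in replicates 1 and 3 and less dense in replicate 2.

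**Figure D4:**
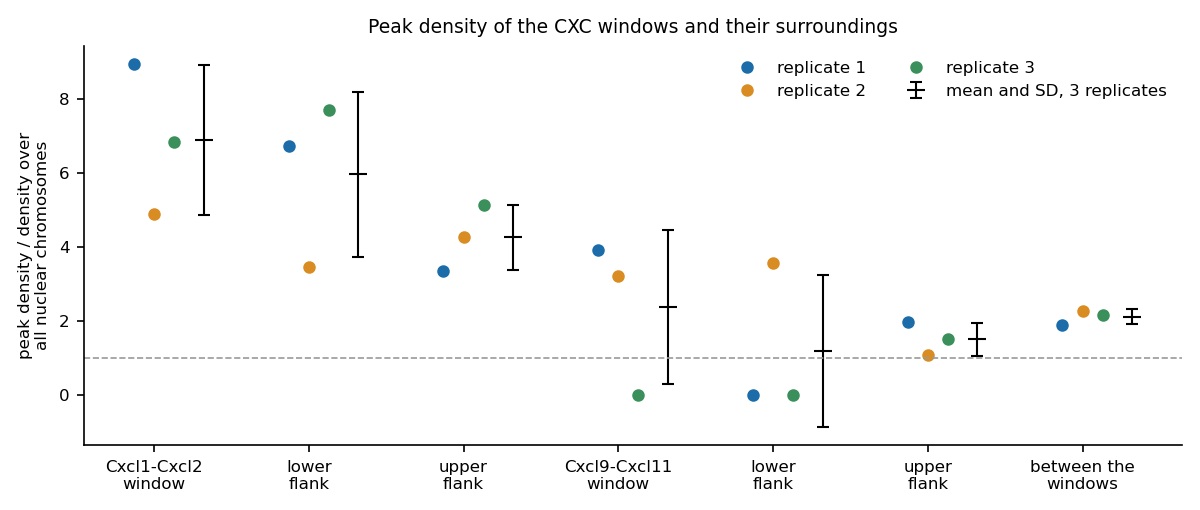
Peak density relative to all nuclear chromosomes (y axis, dashed line at 1) for both CXC windows, their flanks of equal length and the sequence between them (x axis). Coloured points are the 3 replicates, and black marks are their mean and SD. All 3 points of the Cxcl1-Cxcl2 window are above 4.8, and the point of replicate 3 in the Cxcl9-Cxcl11 window is at 0.

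The window borders did not split a shared region. On the lower side of the Cxcl1-Cxcl2 window, the first peak inside lay 6.8 kb from the border, in replicate 2 with rank 37034, and the last outside lay 16.0 kb away, with rank 5721.5 in replicate 1 and 7214 in replicate 2. On its upper side the last inside lay 20.8 kb from the border (replicate 2, rank 29171.5) and the first outside 10.9 kb away (replicate 2, rank 27159.5). For the Cxcl9-Cxcl11 window the corresponding distances were 8.5 and 8.1 kb on the lower side and 29.3 and 16.0 kb on the upper side. A region of all 3 replicates lay just beyond, where the first peaks outside the upper border in replicates 1 and 3 were 38.2 and 38.1 kb away, with ranks 4839.5 and 6183.5.

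The authors' deposited table of intervals covered by at least 2 replicates held 21 intervals in the Cxcl1-Cxcl2 window and 2 in the Cxcl9-Cxcl11 window. Joined where they touch, they gave 9 and 2 regions, the numbers found here from the lists. Its replicate names matched the lists for 13 of the 21 and 0 of the 2 intervals as written, and for all 21 and 2 when its names for replicates 2 and 3 were exchanged. Replicate numbers here are those of the sample titles.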

How the data were processed

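The files deposited by the authors were 1 BED list of peaks per replicate, each peak with its borders and a score. Positions are of mouse build mm9, per the submitters' processing notes. Peak names have the form given by MACS, per the deposited files. The sources used here give no caller version, threshold or aligner, nor how the re-used input reads entered. The deposited score has no stated scale, so it served only to rank peaks within a list, with ties at their mean rank. Read counts are not in the lists, so depth is unknown.

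From the lists, peaks were assigned to windows by centre and joined into regions where they overlapped by at least 1 bp or touched. Starts are printed 1-based. Densities used the mm9 chromosome lengths of GenomeInfoDb 1.38.1. Shares carry exact Clopper-Pearson intervals. Promoter sequences and gene order came from RefSeq tables of GRCm38.p6, and no coordinate was converted between builds. For 8 of the 9 neighbouring genes listed, a promoter was matched. Outside the 4 member genes, motif matches before the start were found for Cxcl3 (kappaB), Ppbp (core hexamer and AP-1) and Art3 (core hexamer). All peaks of replicates 1 and 3 and all regions of at least 2 replicates are given by position, and of the replicate 2 peaks without a partner the best 3 of each window. The members, windows and gene lists were chosen with earlier results of these data known. Alternatives were other overlap rules, shorter lists, wider windows, other density bases and leaving out each replicate. The region code was tested on simulated lists. Computations used pandas 2.3.3 and numpy 2.4.6 under Python 3.11.15, with intervals from scipy 1.17.1 and figures from matplotlib 3.10.9.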

Additional observations from a re-analysis of the deposited data

How the results depend on the processing

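Of 80 recomputed values, 64 stayed within 1.5 times of a count or 1 SD of a mean, 15 moved further and 1 reversed. The SD was that between replicates, for the percentiles 33.2 in the Cxcl1-Cxcl2 and 25.2 in the Cxcl9-Cxcl11 window. Large shifts could thus count as unmoved, such as the Cxcl1-Cxcl2 percentile from 74.9 to 94.1 without replicate 2. Counting any overlap with the window changed no value. The 64 is therefore a loose measure of stability. For the Cxcl1-Cxcl2 window, the 9 regions of at least 2 replicates numbered 7 to 10 under every alternative run on them, and the 6 of all 3 numbered 5 or 6 with all replicates kept. With 1 replicate left out, 7 regions were shared by the 2 that remained, whichever was left out. Its mean number of peaks was 8.0 ± 2.65 with the higher-scored 50% of each list, as the shorter lists hold fewer peaks. It was 8.33 ± 0.577 with an equal 6777 best-scored peaks from each. Its relative density was then 9.97 ± 4.81 and 9.33 ± 0.646 (SD, n = 3 each). Leaving out each replicate gave a mean of 8.0 to 16.0 peaks, lowest without replicate 2, a relative density of 5.86 to 7.90 and a mean of median percentiles of 65.2 to 94.1. The Cxcl9-Cxcl11 window depended more on the choices. Its 2 regions of 2 replicates became 0 with the higher-scored 50% and with equal lists, and 0 to 2 when each replicate was left out, with 0 without replicate 1 or replicate 2. Its count of 0 regions shared by all replicates became 1 with windows widened by 50 kb and ranged from 0 to 2 when each replicate was left out, where the 2 were regions shared by replicates 1 and 2. Its mean number of peaks was 1.33 with the higher-scored 50%, 1.0 with equal lists, 6.0 with wider windows and 1.0 to 5.5 when each replicate was left out. Its relative density was 0.949, below the genome, with the higher-scored 50%, against 2.37 with all peaks; the cause was not tested. Leaving out each replicate gave a density of 1.60 to 3.56, highest without replicate 3, and a mean of median percentiles of 13.9 to 49.6, against 31.8, lowest without replicate 2 and highest without replicate 1, each then resting on 1 replicate's peaks. No paired analysis was possible because the samples form a single group. Depth is unknown, so a position without a peak is not shown to be unbound.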
